A study of Homo sapiens with 16 samples.

Results

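Cells labelled HepG2 were compared after 24 h and after 12 h in the same dose of cinobufagin. The comparison used 6 of the 16 RNA sequencing libraries of the study, 3 titled as 24 h and 3 titled as 12 h, chosen by their titles. HepG2 is an established human liver cancer line, and both groups received 5 µmol/L cinobufagin. The study also holds 1 untreated HepG2 library, and 3 untreated, 3 12 h and 3 24 h libraries of Huh-7, another human liver cancer line, at the same dose. The single untreated HepG2 library is given below as a level beside the others, with no test against it. The labels say that the work was done in triplicate but not whether each library had its own culture, so each p-value below reflects the spread among the sequenced libraries alone and that spread may be technical.

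Cinobufagin is a bufadienolide steroid of toad venom that binds and inhibits the Na,K-ATPase, the plasma membrane pump that exports sodium and imports potassium. Block of the pump raises intracellular sodium and calcium and lowers potassium, and immediate early genes such as EGR1 and FOS are transcribed within minutes to hours of such a change. The integrated stress response is a separate program in which phosphorylation of the translation factor eIF2α favours translation of the transcription factor ATF4, which then activates genes of amino acid synthesis and import, DDIT4, CHAC1 and TRIB3.

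The 6 libraries held between 9972707 and 10457853 expected counts, and each 24 h library was deeper than each 12 h library. Log2 CPM (a gene's counts as a proportion of the library, scaled by TMM, the trimmed mean of M values) correlated at 0.9918 to 0.9931 between replicates of a time and at 0.9709 to 0.9721 between times. Replicate 1 at 24 h stood slightly apart, with a chi-square per gene of 2.8 and 3.51 against the other 24 h libraries, where that between the other two was 1.4 and those at 12 h were 1.34 to 1.51. On plain library totals, most defining hepatocyte genes were at or near 0 in the libraries labelled HepG2. Of 28 genes of secreted hepatocyte proteins, 19, 16 and 17 were at 0 in the untreated, 12 h and 24 h cells, and their summed level was 213 CPM untreated, 124.1 to 129.9 CPM at 12 h and 95.81 to 109.3 CPM at 24 h. Most of that sum was VTN, the gene of vitronectin, at 188, 105 and 79 CPM, and RBP4, the retinol carrier of plasma, was at 10.5, 8.68 and 9.54 CPM. The 22 liver transcription factors of a second list summed to 516.3 CPM untreated, 512.1 to 542.2 CPM at 12 h and 423.6 to 461.9 CPM at 24 h. AFP was at 0 in every one of them and APOA1 averaged 0.0329 CPM or less, while HNF4A averaged 0.709, 0 and 0.0319 CPM in the untreated, 12 h and 24 h cells. In libraries labelled Huh-7, AFP also averaged 0.0342 CPM or less. KRT7, a keratin of bile duct and other simple epithelia, stood at 994, 555 and 408 CPM in the untreated, 12 h and 24 h HepG2-labelled cells. The summed level of 18 markers of cells other than hepatocytes was 2464 CPM untreated, 1337 to 1370 CPM at 12 h and 980.7 to 1038 CPM at 24 h, and its part in the results below was not tested. The cells are therefore called the HepG2-labelled line.

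Between 12 h and 24 h, 891 of 13633 tested genes were higher (6.54%) and 724 were lower (5.31%), with a gene counted when its adjusted p in edgeR's quasi-likelihood test was under 0.05 and its change was at least 2-fold. Of these 1615 genes (11.8%), 1557 had no overlap between the 3 libraries of each time, against 64.2% of all tested genes. Changes of at least 4-fold numbered 159 upward (1.17%) and 132 downward (0.968%). At the adjusted p alone, 4138 genes were higher (30.4%) and 4247 were lower (31.2%), so most differences that exceeded the replicate spread were smaller than 2-fold. The biological coefficient of variation of the fit was 0.0318. With plain library size in place of TMM, the median change of all genes moved from -0.01 to 0.10 on the log2 scale and the share of called genes that were higher moved from 55.2% to 67.3%. A rise or fall is therefore relative to the other genes of the library, and in bulk RNA fewer cells of a type and less RNA per cell cannot be told apart.

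**Figure D1:**
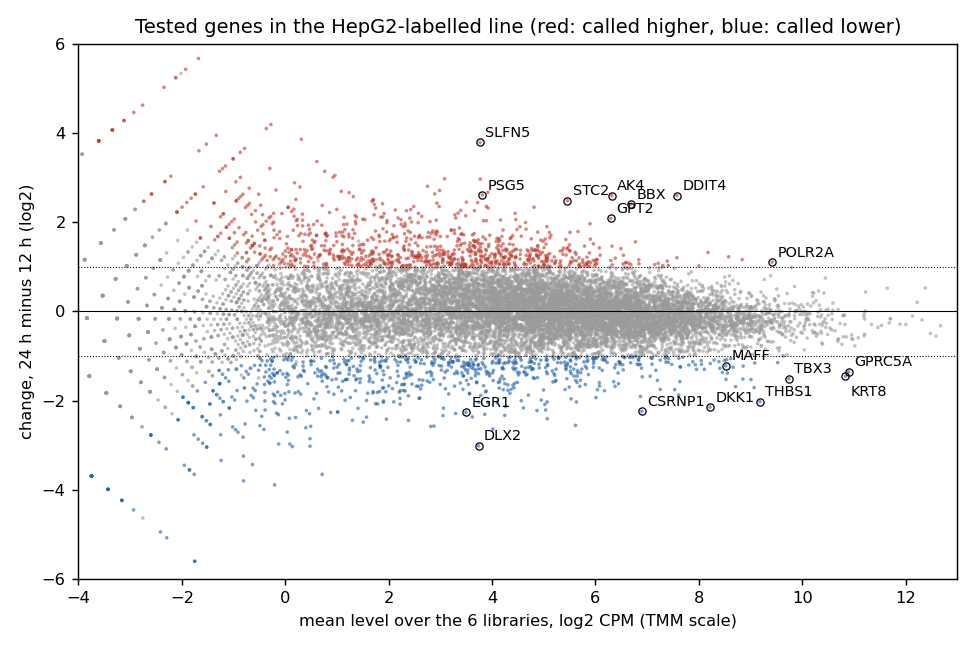
Each point is a gene, placed by its mean level over the 6 libraries (log2 CPM) and by its change from 12 h to 24 h (log2, dotted lines at 2-fold). Red and blue points are the 891 higher and 724 lower genes, 407 tested genes fall outside the drawn range, and the circled genes include DDIT4 and AK4 high above and THBS1, DKK1 and TBX3 far below the line.

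Among genes that averaged 10 CPM or more over the 6 libraries, SLFN5 rose most. It is a member of the Schlafen family that is known as an interferon-inducible gene. SLFN5 was at 2.704, 1.56 and 1.22 CPM in the 12 h libraries and at 27.2, 24.2 and 24.9 CPM in the 24 h libraries, beside 56.9 CPM in the untreated library. The 3 later libraries were all far above the 3 earlier ones, a rise of 13.8-fold (log2 3.79, SE 0.155, adjusted p 5.94e-20). AK4, a mitochondrial adenylate kinase, was at 19.8, 21.9 and 25.9 CPM at 12 h, close to the untreated 19.9 CPM, and at 139, 139 and 132 CPM at 24 h. It rose 6.06-fold (adjusted p 3.56e-25), and its 24 h level was thus above both earlier states. BBX, a transcription factor with an HMG box, was at 33.01, 30.02 and 34.9 CPM at 12 h and at 181, 171 and 166 CPM at 24 h, beside 105 CPM untreated, a rise of 5.29-fold (adjusted p 5.04e-26). Other genes among the 12 highest were HES7, PSG5, DDIT4, STC2, GRAMD4, ASB13 and BAHCC1, with rises of 5.05-fold to 6.37-fold. ASB13, which codes for a substrate adaptor of ubiquitin ligases, rose from 4.84 ± 0.143 to 24.8 ± 1.48 CPM (mean ± SD, n = 3).

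The largest fall at this level was in DLX2, a homeobox transcription factor of forebrain and craniofacial development. DLX2 was at 20.2, 26.7 and 24.5 CPM at 12 h and at 2.17, 3.05 and 3.57 CPM at 24 h, beside 3.98 CPM untreated. The groups did not overlap, and the fall was 8.099-fold (log2 -3.02, SE 0.163, adjusted p 6.15e-17). TENT5B, a noncanonical poly(A) polymerase, was at 89.6, 81.5 and 80.03 CPM at 12 h and at 13.4, 13.5 and 15.7 CPM at 24 h, beside 18.3 CPM untreated. It fell 5.89-fold (adjusted p 2.49e-23). CDK5, a kinase best known in neurons, fell from 20.6 ± 1.41 to 3.98 ± 0.855 CPM, and AAAS, a nuclear pore protein, fell from 31.7 ± 1.36 to 6.28 ± 0.992 CPM. Both were also below their untreated levels of 34.6 and 111 CPM at both times. SELENBP1, a selenium-binding protein with methanethiol oxidase activity, fell from 56.4 ± 3.27 to 10.6 ± 0.819 CPM and GAMT, an enzyme of creatine synthesis, from 48.1 ± 0.799 to 10.3 ± 0.364 CPM. NABP1, a single-stranded DNA-binding protein, fell 4.64-fold and PHLDA1 4.96-fold. LOC102724594, a near-identical copy of the splicing factor gene U2AF1, was uneven among replicates, at 12.1, 35.8 and 35.8 CPM at 12 h and 7.69, 5.31 and 0.396 CPM at 24 h. Reads of such a copy are hard to assign, so its fall of 6.24-fold (adjusted p 1.39e-06) is uncertain.

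By number, the integrated stress response list had the most members higher at 24 h. Lists differ in size, so this ranks numbers and not shares. Of its 29 tested members 9 rose and 1 fell, beside 6.54% and 5.31% of all tested genes. Its median change was 0.45 on the log2 scale against -0.01 over all tested genes. DDIT4, an inhibitor of the kinase mTORC1, was at 53.9, 54.9 and 53.2 CPM at 12 h and at 306, 337 and 339 CPM at 24 h, beside 626 CPM untreated. The 24 h libraries lay between the 12 h libraries and the untreated one, and DDIT4 rose 6.06-fold (log2 2.60, SE 0.0498, adjusted p 1.36e-28). STC2, a secreted glycoprotein hormone, was at 13.97, 14.2 and 11.8 CPM at 12 h and at 75.7, 75.96 and 72.1 CPM at 24 h, beside 19.6 CPM untreated. Unlike DDIT4, STC2 at 24 h was above the untreated level, with a rise of 5.59-fold (adjusted p 1.6e-23). CHAC1, which degrades glutathione, was at 11.6, 11.3 and 10.7 CPM at 12 h and at 33.9, 35.8 and 38.6 CPM at 24 h, beside 51.5 CPM untreated, and rose 3.22-fold (adjusted p 2.11e-17). TRIB3, a pseudokinase that restrains ATF4, was at 27.2, 30.02 and 29.1 CPM at 12 h and at 66.96, 68.9 and 74.3 CPM at 24 h, beside 224 CPM untreated, and rose 2.44-fold (adjusted p 3.85e-16). The other risers of the list were ASNS (2.65-fold), VLDLR (2.44-fold), CEBPG (2.17-fold), SESN2 (2.09-fold) and PSPH (2.07-fold).

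The upstream transcription factor and the faller of that list did not follow these targets. ATF4 mRNA was at 759, 734 and 735 CPM at 12 h and at 435, 433 and 442 CPM at 24 h, a change of -0.77 on the log2 scale that did not reach 2-fold (SE 0.0374, adjusted p 4.97e-18). The groups did not overlap, and the 24 h level was near the untreated 475 CPM. ATF3, another transcription factor of the program, was at 109, 112 and 109 CPM at 12 h and at 109.7, 127 and 126 CPM at 24 h, and its groups overlapped (log2 0.14, adjusted p 0.0159). DDIT3, which codes for the proapoptotic factor CHOP, changed by 0.45 (adjusted p 0.00149), also under 2-fold. PPP1R15A, the phosphatase subunit that reverses eIF2α phosphorylation, was the member that fell, and it is also an immediate early gene described with that list below.

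The window of 250 bases before the start of CHAC1 is shown because CHAC1 changed in opposite directions in the 2 lines of the study (below) and because its window holds TTGCATCA, the composite motif known for binding ATF4 with a C/EBP partner. It lies on the plus strand at chr15:40953221-40953470 of GRCh38.p14 in RefSeq, which is not the build of the counts, and the capitals mark the motif, which begins 209 bases before the start.
CHAC1: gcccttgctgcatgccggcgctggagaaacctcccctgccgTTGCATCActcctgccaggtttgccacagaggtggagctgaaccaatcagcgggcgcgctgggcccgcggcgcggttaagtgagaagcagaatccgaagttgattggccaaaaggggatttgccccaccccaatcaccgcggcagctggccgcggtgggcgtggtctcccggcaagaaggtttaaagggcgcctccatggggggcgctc
These 8 letters or their reverse complement stood in 0.772% of the 35116 RefSeq promoter windows. By gene, where a match at any start counts, they stood in 0.661% of the tested genes with a window. The share was 0.985% of the genes higher at 24 h (7 genes) and 0.352% of those lower (2 genes). Windows were on hand for 711 of the 891 higher and 568 of the 724 lower genes. A match describes the letters and shows no binding. SLC1A5, a riser described below, also held them in at least 1 of the windows of its 3 starts. DDIT4, STC2, ASNS and SESN2 had windows in the table without these letters, and 99 of the 118 named genes had a window at all.

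Genes of amino acid synthesis and import had 4 of 22 tested members higher and 0 lower, beside 6.54% and 5.31% of all tested genes. Their median change was 0.48 on the log2 scale. GPT2, the mitochondrial alanine aminotransferase, was at 27.9, 32.2 and 29.7 CPM at 12 h and at 125, 128 and 128 CPM at 24 h, beside 86.8 CPM untreated. It rose 4.25-fold (log2 2.09, SE 0.0541, adjusted p 3.49e-25), to above the untreated level. ASNS, asparagine synthetase, was at 51.3, 47.4 and 48.97 CPM at 12 h and at 132, 125 and 135 CPM at 24 h, beside 156 CPM untreated. SLC1A5, a glutamine importer, was at 219, 227 and 240.2 CPM at 12 h and at 521, 532 and 550.2 CPM at 24 h, beside 451 CPM untreated, and rose 2.34-fold (adjusted p 7.32e-23). PSPH, which completes serine synthesis, rose from 20.97 ± 2.105 to 43.5 ± 2.09 CPM. The serine enzyme PSAT1 and the cysteine enzyme CTH lay just under the 2-fold threshold at 0.98 and 0.98 on the log2 scale. SLC7A11, the cystine importer, changed by -0.32, so the list did not move as 1 block. ASNS and PSPH are members of both lists.

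Of 33 tested immediate early genes 9 fell, beside 5.31% of all tested genes, 0 rose, and the median change was -0.72 on the log2 scale. EGR1, a zinc finger transcription factor, was at 18.6, 18.1 and 19.3 CPM at 12 h and at 3.06, 4.62 and 3.96 CPM at 24 h, beside 3.802 CPM untreated. The later libraries were near the untreated level, a fall of 4.796-fold (log2 -2.26, SE 0.144, adjusted p 4.47e-15). CSRNP1, a nuclear protein induced by AXIN1, was at 196, 193 and 202 CPM at 12 h and at 41.6, 42.4 and 40.6 CPM at 24 h, beside 14.3 CPM untreated, and fell 4.74-fold (adjusted p 2.71e-27). PPP1R15A was at 652, 631 and 635 CPM at 12 h and at 188, 205 and 202 CPM at 24 h, beside 74.1 CPM untreated, and fell 3.22-fold (adjusted p 1.23e-26). Both stayed above the untreated library at 24 h. MAFF, a small MAF transcription factor, was at 502, 513 and 525 CPM at 12 h and at 215, 215 and 230.1 CPM at 24 h, beside 24.8 CPM untreated. FOS, a subunit of the factor AP-1, fell 2.800-fold from 43.4 ± 2.51 to 15.5 ± 0.587 CPM. The orphan nuclear receptor genes NR4A3 and NR4A1 fell 2.98-fold and 2.04-fold, IER3 fell 2.98-fold and IER2 2.07-fold. The partner of FOS, JUN, was at 110.4, 113 and 119 CPM at 12 h and 70.02, 75.1 and 81.01 CPM at 24 h, a change of -0.60 that did not reach 2-fold, and MYC changed by -0.85 (adjusted p 4.42e-19).

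**Figure D2:**
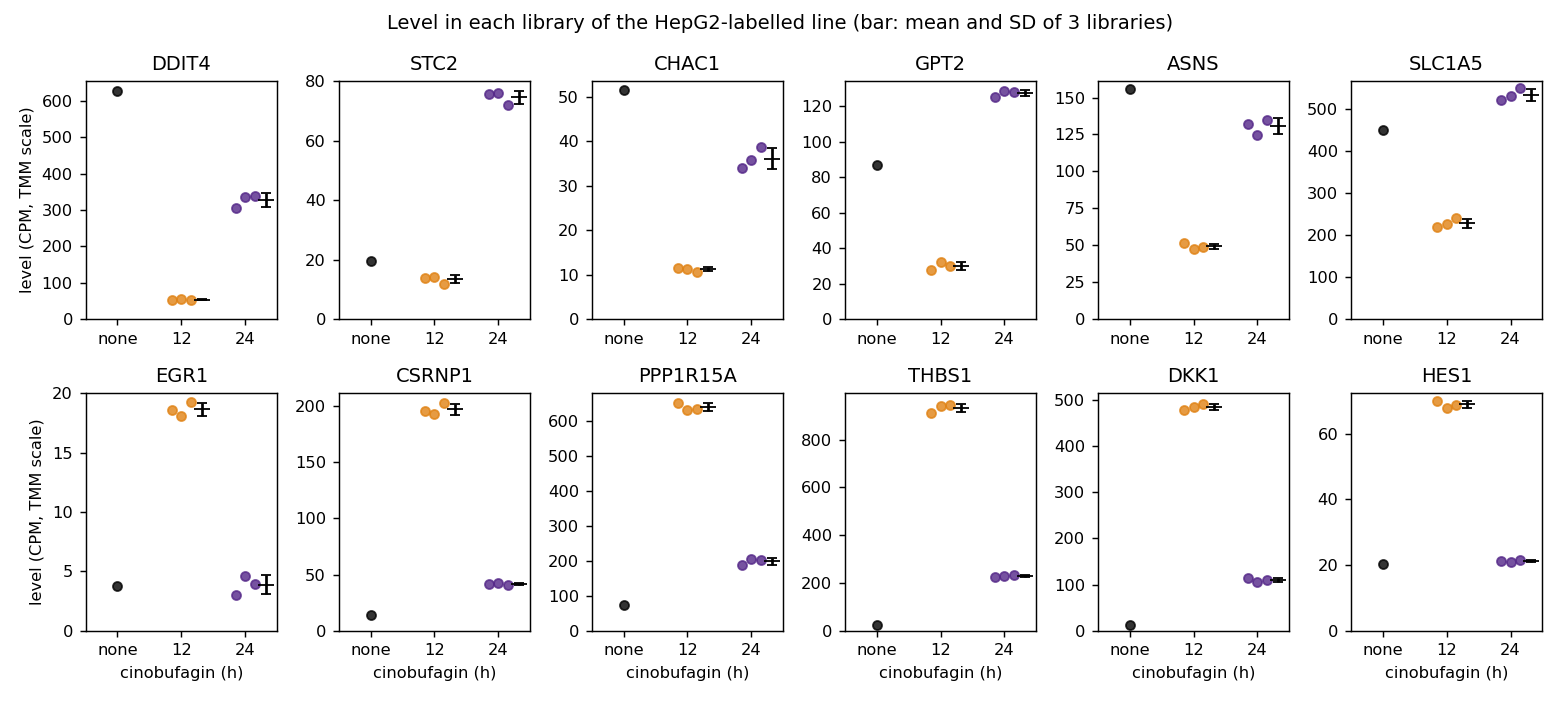
Level of 12 genes (CPM on the TMM scale, axis from 0) in the untreated library and in the 3 libraries of each time, with the mean and SD of 3 libraries as a bar. In the upper row the 24 h points stand above the 12 h points, and in the lower row they stand below them, with no overlap in any panel.

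The promoter windows of 3 members of this list are shown because they hold the motifs through which serum, calcium and cAMP signals are known to reach immediate early genes. EGR1 holds 2 CArG boxes, the motif of serum response factor, beginning 105 and 83 bases before the start, on the plus strand at chr5:138465229-138465478. PPP1R15A holds TGACGTCA, the full cAMP response element, 58 bases before its start, on the plus strand at chr19:48872171-48872420. MAFF holds TGACGTCA 54 bases before 1 of its 2 starts in the table, on the plus strand at chr22:38201744-38201993. The windows are from RefSeq, build GRCh38.p14, and capitals mark the motifs. Windows of FOS, CSRNP1, NR4A3 and JUN held neither a CArG box nor TGACGTCA, so the windows shown do not stand for the list.
EGR1: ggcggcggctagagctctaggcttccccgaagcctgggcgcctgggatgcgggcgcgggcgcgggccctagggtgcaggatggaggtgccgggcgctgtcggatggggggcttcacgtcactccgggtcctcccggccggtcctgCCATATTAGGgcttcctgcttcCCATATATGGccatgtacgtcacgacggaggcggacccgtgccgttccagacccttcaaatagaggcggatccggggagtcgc
PPP1R15A: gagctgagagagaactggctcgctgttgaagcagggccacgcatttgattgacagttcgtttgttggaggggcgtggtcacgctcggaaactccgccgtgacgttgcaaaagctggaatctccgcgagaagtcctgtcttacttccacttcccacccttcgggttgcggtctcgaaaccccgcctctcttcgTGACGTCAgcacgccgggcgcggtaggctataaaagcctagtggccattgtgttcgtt
MAFF: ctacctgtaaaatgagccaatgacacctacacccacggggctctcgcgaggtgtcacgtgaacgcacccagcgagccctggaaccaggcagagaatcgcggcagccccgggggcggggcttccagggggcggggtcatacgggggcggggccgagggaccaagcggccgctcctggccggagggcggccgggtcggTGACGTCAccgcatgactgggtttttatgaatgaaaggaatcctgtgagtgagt
A CArG box on either strand stood in 1.16% of the 35116 windows. By gene, any start counting, it stood in 1.49% of the tested genes, 1.58% of those that fell and 0.985% of those that rose. TGACGTCA, which reads the same on both strands, stood in 1.65% of all windows and, by gene, in 3.36% of the tested genes. Its share was 4.58% for genes that fell and 2.11% for genes that rose. The AP-1 motif TGACTCA or its reverse complement stood in 4.2% of all windows. By gene it stood in 4.36% of the tested genes, 5.63% of those that fell and 4.36% of those that rose. None of these motifs overlaps another in the windows shown, and the shares are descriptions without a test.

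The genes of the SRF and YAP list are known to be driven by actin dynamics and by YAP with TEAD factors. Of 22 tested members 4 were lower and 0 higher, beside 5.31% and 6.54% of all tested genes. Their median change was -0.57. THBS1, the matrix glycoprotein thrombospondin 1, was at 911, 942 and 943 CPM at 12 h and at 226, 227 and 233 CPM at 24 h, beside 24.2 CPM untreated. It fell 4.07-fold (log2 -2.03, SE 0.0351, adjusted p 1.69e-29) and was still above the untreated level. LATS2, a Hippo pathway kinase, was at 387, 391 and 397 CPM at 12 h and at 151, 164 and 162 CPM at 24 h, beside 28.6 CPM untreated. CCN2, a matricellular protein, fell 2.303-fold and F3, the coagulation tissue factor, 2.28-fold. SRF itself changed by -0.03 on the log2 scale. The MAP kinase phosphatases, which switch off ERK and its relatives, were mixed. Of 10 tested members 1 was higher and 2 were lower, numbers too small to set against those shares. DUSP4 fell 2.196-fold from 226 ± 1.59 to 103 ± 2.93 CPM, while DUSP7 rose 2.19-fold from 17.6 ± 2.104 to 38.5 ± 2.52 CPM.

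Of the 8 called genes with the highest mean CPM, 7 were lower at 24 h and each of those 7 was higher at 12 h than in the untreated library. GPRC5A, an orphan receptor induced by retinoic acid, was at 2724, 2753 and 2749 CPM at 12 h and at 1061, 1058 and 1092 CPM at 24 h, beside 257 CPM untreated. KRT8, a keratin of simple epithelia, was at 2662, 2667 and 2690.5 CPM at 12 h and at 939, 998 and 990.2 CPM at 24 h, beside 1898 CPM untreated. KRT8 at 24 h was thus below its untreated level, whereas GPRC5A stayed above it. The receptor tyrosine kinase EPHA2 fell 2.22-fold and the tyrosine kinase ABL2 2.23-fold. AVPI1 fell 2.001-fold, at the edge of the threshold, and its call was lost in 9 of the other settings tried. The highest-mean gene that rose was POLR2A, described below.

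Of the secreted Wnt antagonists and Wnt targets, 2 of 13 tested members fell and 0 rose, beside 5.31% and 6.54% of all tested genes. Both fallen members were abundant at 12 h. DKK1, a secreted inhibitor of Wnt coreceptors, was at 479, 484 and 492 CPM at 12 h and at 114, 105 and 109.8 CPM at 24 h, beside 12.6 CPM untreated. It fell 4.43-fold (log2 -2.15, SE 0.038, adjusted p 1.69e-29). TBX3, a T-box transcription factor, was at 1249.5, 1253 and 1296 CPM at 12 h and at 423, 446 and 462 CPM at 24 h, beside 47.8 CPM untreated, and fell 2.85-fold (adjusted p 2.65e-26). Neither gene returned to the untreated level.

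The NOTCH list moved in both directions, with 4 of 21 tested members higher and 1 lower, beside 6.54% and 5.31% of all tested genes. Its median change was 0.34. HES1, a repressor that NOTCH signalling induces, was at 69.96, 67.9 and 68.8 CPM at 12 h and at 21.2, 20.8 and 21.6 CPM at 24 h, beside 20.3 CPM untreated. It fell 3.25-fold to the untreated level (log2 -1.70, SE 0.0684, adjusted p 4.03e-20). Its relative HES7, a repressor of the somite clock, moved the other way, from 3.83, 3.89 and 4.56 CPM at 12 h to 23.2, 28.9 and 26.4 CPM at 24 h, beside 9.07 CPM untreated. HES7 rose 6.37-fold (adjusted p 1.5e-18). NRARP, a feedback inhibitor of NOTCH, rose 2.46-fold from 20.02 ± 2.01 to 49.3 ± 4.68 CPM, and the ligand gene JAG2 rose 2.36-fold from 17.4 ± 0.122 to 40.9 ± 2.97 CPM. DLL4, another ligand gene, rose 2.56-fold but was scarce, at 0.338, 1.78 and 0.779 CPM at 12 h and 2.47, 2.46 and 2.58 CPM at 24 h.

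The HES1 window is shown because it holds copies of TGGGAA, the core of the motif known for RBPJ, the DNA-binding partner of NOTCH, while HES1 fell and other NOTCH genes rose. It lies on the plus strand at chr3:194135898-194136147 of GRCh38.p14 in RefSeq, and the capitals mark TGGGAA beginning 84 and 70 bases before the start.
HES1: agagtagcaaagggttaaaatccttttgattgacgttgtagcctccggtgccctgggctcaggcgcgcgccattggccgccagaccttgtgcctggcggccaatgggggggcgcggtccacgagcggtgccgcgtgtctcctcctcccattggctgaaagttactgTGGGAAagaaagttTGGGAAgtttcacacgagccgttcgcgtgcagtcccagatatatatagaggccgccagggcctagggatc
TGGGAA or its reverse complement is a short motif that stood in 20.8% of all windows. By gene, any start counting, it stood in 25% of the tested genes, 25.3% of those that rose and 24.6% of those that fell. Neither of the last shares stood far from that of the tested genes. The windows of HES7, NRARP and JAG2 did not hold it.

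Of 28 tested NF-kB pathway genes 4 fell, beside 5.31% of all tested genes, and 0 rose. The median change of the list was -0.71, and 7 of the 28 changes were above 0. RELB, a subunit of the noncanonical pathway, was at 77.96, 77.5 and 81.7 CPM at 12 h and at 34.3, 39.01 and 37.4 CPM at 24 h, beside 15.6 CPM untreated, and fell 2.14-fold (adjusted p 1.01e-15). REL was at 98.9, 104 and 95.8 CPM at 12 h and at 49.6, 48.8 and 49.2 CPM at 24 h, at the edge of the threshold with a fall of 2.03-fold (adjusted p 2.62e-17) whose call was lost in 4 of the other settings tried. The other two fallen members were the chemokine gene CXCL8, from 7.25 ± 1.696 to 2.104 ± 0.0571 CPM, and the adaptor gene TRAF1, from 1.899 ± 0.222 to 0.230 ± 0.113 CPM. Both were scarce.

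Of the interferon response list 7 of 28 tested members fell and 0 rose, beside 5.31% and 6.54% of all tested genes. Its median change was -0.33. OAS3 and OAS1, which make the oligoadenylates that activate RNase L, were the most abundant of the fallen members. OAS3 was at 216, 214 and 227 CPM at 12 h and at 70.9, 73.3 and 80.1 CPM at 24 h, beside 328 CPM untreated, and fell 2.93-fold (adjusted p 1.44e-23). OAS1 was at 28.6, 30.5 and 30.9 CPM at 12 h and at 10.9, 9.24 and 8.52 CPM at 24 h, beside 95.3 CPM untreated, and fell 3.13-fold (adjusted p 9.04e-16). IRF9, the DNA-binding subunit of the interferon-activated complex ISGF3, fell 2.21-fold from 24.4 ± 1.59 to 11.02 ± 0.357 CPM. These 3 genes fell further from untreated levels that were higher than both treated groups. OAS2, MX2, IFI44L and ISG20 also fell, each from under 4 CPM at 12 h. STAT2 changed by 0.26 on the log2 scale. SLFN5, described above, is not a member of that list.

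Targets of p53 split, with 5 of 28 tested members higher and 2 lower, beside 6.54% and 5.31% of all tested genes. Their median change was 0.32. BBC3, the proapoptotic BH3 protein PUMA, was at 6.87, 7.56 and 7.57 CPM at 12 h and at 18.5, 19.3 and 22.2 CPM at 24 h, beside 19.01 CPM untreated, and rose 2.72-fold (adjusted p 9.1e-13). It was also the 1 member that rose among 18 tested BCL2 family genes, of which 0 fell. The DNA damage sensor gene XPC rose 2.14-fold, PHLDA3, an inhibitor of AKT, 2.13-fold, and the scarce SESN1 2.501-fold, beside SESN2 above. GADD45B fell 2.29-fold from 159 ± 4.85 to 69.3 ± 1.44 CPM, and the other fallen member was FDXR, a mitochondrial reductase, from 8.83 ± 2.203 to 1.61 ± 0.253 CPM. CDKN1A, the cyclin-dependent kinase inhibitor p21 and the best known target, was at 204, 214 and 209.7 CPM at 12 h and at 121, 122 and 132 CPM at 24 h, beside 69.7 CPM untreated. Its change of -0.75 did not reach 2-fold (adjusted p 1.53e-16). MCL1, an antiapoptotic BCL2 relative, changed by -0.60 (adjusted p 9.01e-16).

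Few cell division genes passed. Of 37 tested mitotic genes and 24 G1 cyclin and CDK genes, 0 passed the 2-fold rule in either direction, beside 11.8% of all tested genes. Of these members 33 and 24 averaged 10 CPM or more over the 6 libraries. Among all 8559 tested genes at that level 338 rose and 324 fell, a smaller share than 11.8%. Of 34 tested proteasome genes, a list apart from cell division with 32 at that level, 0 passed the rule either. Their median change was -0.32 on the log2 scale. PLK1, a mitotic kinase, was at 305, 308 and 312 CPM at 12 h and at 183, 182 and 204 CPM at 24 h, a change of -0.70 (adjusted p 3.23e-16). CCNB1, a mitotic cyclin, changed by -0.55 (adjusted p 6.36e-12), whereas the 12 h and 24 h libraries overlapped for CDK1 (log2 0.03) and AURKA (log2 -0.12). Among 44 tested DNA replication genes, whose median change was -0.33, 1 fell, MCM5, a subunit of the replicative helicase. MCM5 was at 452, 456 and 469 CPM at 12 h and at 194, 217 and 219.8 CPM at 24 h, beside 269 CPM untreated, and fell 2.18-fold (adjusted p 1.74e-20). ATR, the checkpoint kinase of replication stress, rose 2.08-fold from 11.5 ± 1.07 to 23.9 ± 2.35 CPM.

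Of 39 tested histone genes 8 fell and 2 rose, beside 5.31% and 6.54% of all tested genes. Their median change was -0.49. The libraries were made with oligo-dT beads, and most replication-dependent histone messages carry no poly(A) tail, so these counts hold only the tailed fraction, and near-identical histone genes share reads. H3C4 was at 38.1, 37.4 and 44.1 CPM at 12 h and at 6.71, 10.5 and 9.41 CPM at 24 h, beside 4.06 CPM untreated, and fell 4.48-fold (adjusted p 6.16e-17). H2BC21 fell 2.67-fold from 84.8 ± 1.91 to 31.7 ± 0.740 CPM. The other fallers, H2AC14, H2AC7, H2BC18, H2BC7, H3C8 and H4C5, were scarce, each averaging 5.06 CPM or less at 12 h. The libraries of the 2 times overlapped for H2AC7. H2AC14 came past the filter on low counts through its 12 h libraries, so the number that fell supports nothing by itself. Among the risers, H2BC17 rose 2.59-fold.

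Pregnancy-specific glycoprotein genes, a cluster of near-identical immunoglobulin-like genes of the placental trophoblast on chromosome 19, were higher at 24 h. All 7 tested members of the 9 in the list rose. PSG4 was at 7.999, 8.89 and 8.68 CPM at 12 h and at 25.5, 26.4 and 27.4 CPM at 24 h, beside 0.259 CPM untreated, and rose 3.101-fold (adjusted p 9.35e-14). PSG5 was at 3.38, 4.45 and 4.01 CPM at 12 h and at 25.6, 23.4 and 23.6 CPM at 24 h, beside 0.173 CPM untreated, and rose 6.12-fold (adjusted p 2.05e-15). The untreated level of both was at or under 0.259 CPM, which is what 3 counts make in that library. PSG1 was at 1.13, 1.000 and 1.002 CPM at 12 h and at 4.44, 5.896 and 6.34 CPM at 24 h, and PSG2, PSG6, PSG8 and PSG9 were below 5 CPM in all libraries. PSG2, PSG6 and PSG8 averaged 0.410, 0.0741 and 0.410 CPM at 12 h and came past the filter on low counts through their 24 h libraries, so the number that rose supports nothing by itself. Reads of near-identical copies are also hard to part. Per length, PSG5 reached a mean of 14.6 FPKM at 24 h and PSG4 11.8 FPKM. The placental alkaline phosphatase gene ALPP, which is in the same list, was far more abundant at 1609.7 FPKM at 12 h and 1546 FPKM at 24 h. Its change was -0.19 on the log2 scale (adjusted p 2.34e-05), and the intestinal form ALPI changed by -0.48.

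**Figure D3:**
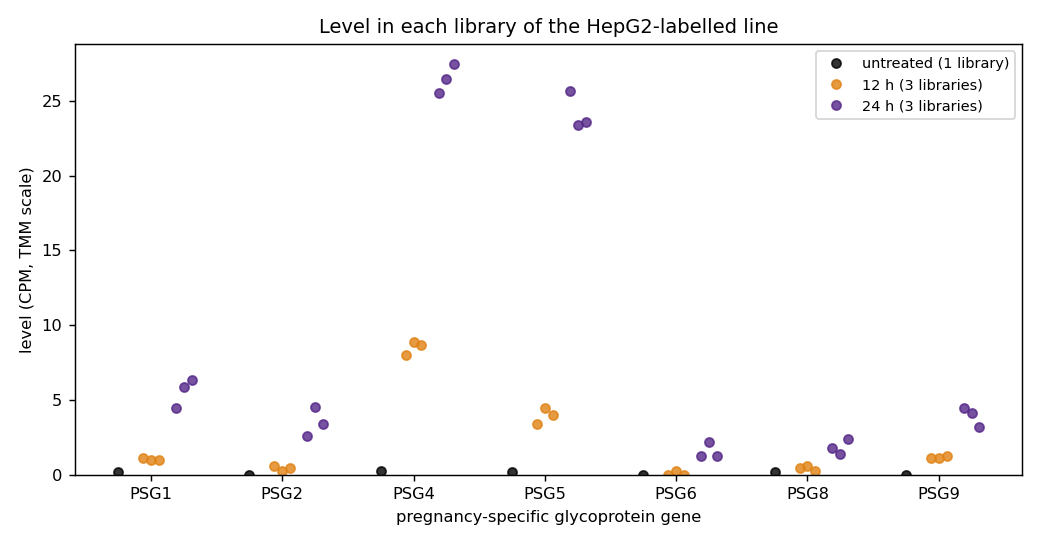
Level (CPM on the TMM scale) of the 7 tested pregnancy-specific glycoprotein genes in each library of the HepG2-labelled line. PSG4 and PSG5 at 24 h stand above 23 CPM and the 12 h points below 9 CPM, while the other 5 genes stay below 7 CPM throughout.

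Of 33 tested hypoxia response and glycolysis genes 3 rose and 3 fell, beside 6.54% and 5.31% of all tested genes, so neither count stood far from that background. EGLN3, an oxygen-sensing prolyl hydroxylase, was at 1.802, 2.001 and 1.22 CPM at 12 h and at 11.9, 11.99 and 11.5 CPM at 24 h, beside 17.97 CPM untreated, and rose 6.999-fold (adjusted p 4.12e-14). The glucose importer SLC2A3 rose 2.54-fold at scarce levels and the enolase ENO2 2.04-fold. The glycolytic enzyme genes PFKL and ALDOC fell 2.21-fold and 2.11-fold, and PFKFB4 fell 2.12-fold, while GAPDH changed by -0.55. PDK4, which inhibits pyruvate dehydrogenase, was at 41.1, 42.5 and 41.4 CPM at 12 h and averaged 18.3 ± 1.57 CPM at 24 h (SD, n = 3), beside 12.2 CPM untreated, and fell 2.27-fold (adjusted p 3.01e-14).

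In the NRF2 and aldo-keto reductase list 2 of 23 tested members rose and 3 fell, beside 6.54% and 5.31% of all tested genes. Both counts are small. SRXN1, which repairs oxidised peroxiredoxins, was at 71.9, 69.8 and 70.9 CPM at 12 h and at 156, 164 and 154 CPM at 24 h, beside 70.00 CPM untreated, and rose 2.23-fold (adjusted p 6.84e-20). OSGIN1 rose 2.54-fold and the scarce AKR1B10 fell 2.97-fold. AKR1C1, a steroid-reducing enzyme with near-identical relatives, fell 2.804-fold from 40.97 ± 1.99 to 14.6 ± 1.59 CPM, and ABCC2, an exporter of conjugates into bile, fell 2.41-fold from 95.1 ± 2.48 to 39.5 ± 2.09 CPM. Among 15 tested liver transcription factors, 2 rose and 0 fell. The risers included PPARA, a nuclear receptor of fatty acid breakdown, which was at 25.9, 25.01 and 20.9 CPM at 12 h and at 64.8, 65.2 and 63.1 CPM at 24 h, beside 36.6 CPM untreated. HPD, an enzyme of tyrosine breakdown, fell 4.11-fold and ASL, of the urea cycle, 3.05-fold. TSC22D3, the glucocorticoid-induced leucine zipper, rose 3.26-fold, from 15.1, 16.8 and 17.7 CPM at 12 h to 52.4, 54.3 and 55.3 CPM at 24 h, still below the untreated 202 CPM.

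Of 46 tested polymerase and Mediator genes 3 rose, and of 36 tested SR and hnRNP splicing genes 1 rose and 3 fell. Of 27 tested mTOR and eIF4E pathway genes 2 rose and 1 fell. Beside 6.54% of all tested genes higher and 5.31% lower, these counts are too small to set apart from that background. POLR2A, the largest subunit of RNA polymerase II, was at 433, 431 and 436 CPM at 12 h and at 906, 945 and 947 CPM at 24 h, beside 540.2 CPM untreated. It rose 2.15-fold (log2 1.11, SE 0.0316, adjusted p 5.19e-24), to above the untreated level. The Mediator genes CDK8 and MED29 rose 2.16-fold and 2.03-fold, and 0 of the 46 tested polymerase and Mediator genes fell. UBTF, which starts ribosomal RNA transcription by RNA polymerase I, rose 2.12-fold from 95.3 ± 3.84 to 202 ± 0.906 CPM. HNRNPL, a splicing regulator, was at 537, 551 and 552 CPM at 12 h and at 188, 192 and 190.2 CPM at 24 h, beside 387 CPM untreated, and fell 2.88-fold (adjusted p 5.37e-27). The splicing genes RBM39 and CLK4 also fell, 2.15-fold and 2.18-fold, while SRSF7 rose 2.09-fold. Of 79 tested cytosolic ribosomal protein genes only RPL12 passed. RPL12 fell 2.08-fold from 531 ± 4.302 to 254 ± 6.25 CPM, while the median change of the list was -0.23. In the mTOR and eIF4E list, MKNK2, a kinase of eIF4E, rose 2.86-fold from 32.3 ± 1.37 to 92.3 ± 4.11 CPM and RRAGC, a GTPase that signals amino acids to mTORC1, fell 2.14-fold. MTOR itself changed by 0.67 (adjusted p 6.64e-13), EIF4E by -0.10 (adjusted p 0.113) and EIF4EBP1 by 0.05 (adjusted p 0.465).

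Of 8 tested genes of the Na,K-ATPase, the target of the drug, 1 fell and 0 rose, beside 5.31% and 6.54% of all tested genes. The faller was the scarce regulatory subunit gene FXYD3. The β subunit genes ATP1B1 and ATP1B3 changed by 0.40 and 0.42 on the log2 scale (adjusted p 4.72e-12 and 8.27e-13), under 2-fold. NFAT5, the transcription factor of osmotic stress, was at 421, 432 and 428 CPM at 12 h and at 207, 196 and 197 CPM at 24 h, beside 91.4 CPM untreated, and fell 2.13-fold (adjusted p 1.35e-21). The small heat shock protein gene HSPB1 was the 1 member that fell among 30 tested heat shock genes, of which 0 rose, and HSPA1A changed by 0.46 (adjusted p 2.09e-10).

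**Figure D4:**
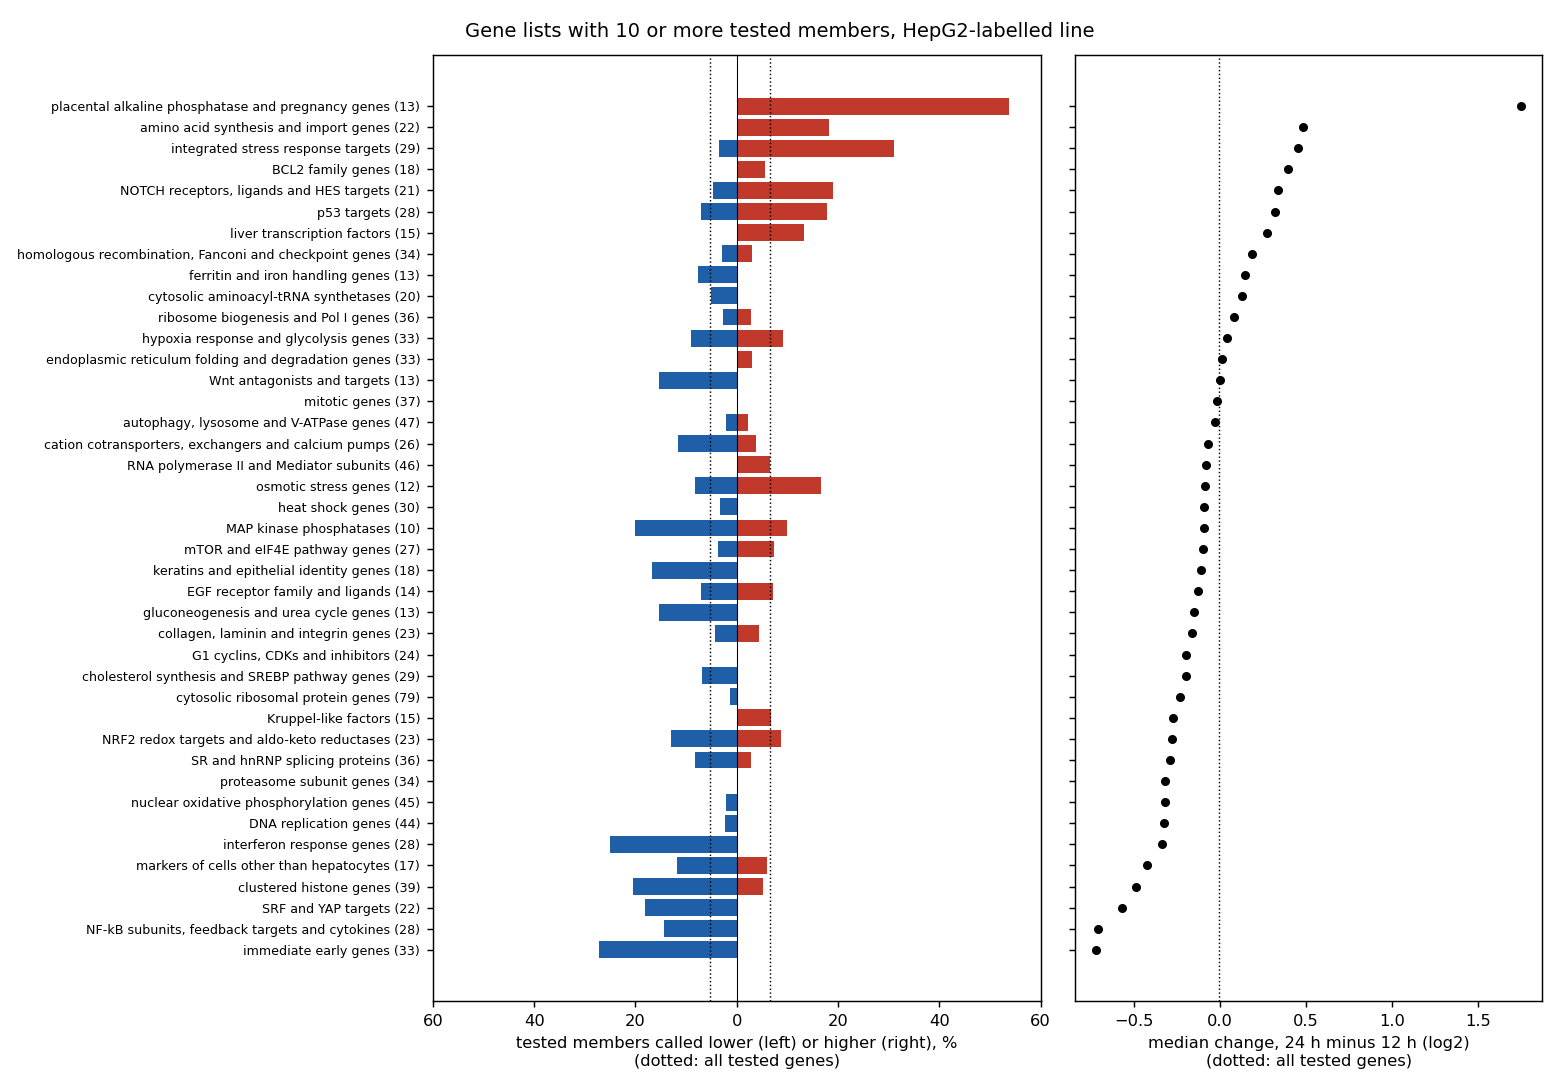
For 41 gene lists with 10 or more tested members (number tested in brackets), the left panel shows the percentage of members called lower (blue) or higher (red) at 24 h and the right panel the median log2 change, with dotted lines for all tested genes. The immediate early genes stand lowest at a median of -0.72, and above the amino acid genes at 0.48 only the placental list at 1.75 stands higher. PSG2, PSG6 and PSG8 of the placental list came past the filter on low counts through their 24 h libraries, so its place supports nothing by itself.

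The same 2 times were compared in the Huh-7-labelled line, which shares no library with the HepG2-labelled one. There 888 genes were higher (6.51%) and 892 were lower (6.54%) at 24 h. Genes higher in both lines numbered 217 and genes lower in both numbered 241, which together with 59 genes called in opposite directions left most called genes of each line uncalled in the other. The 217 shared risers were among 891 risers in HepG2-labelled cells and 888 in Huh-7-labelled cells, and the 241 shared fallers among 724 and 892. Of all tested genes, 6.51% rose and 6.54% fell in Huh-7-labelled cells. Set against genes called in either direction, 1615 and 1780 in the lines, the shared risers were 13.4% and 12.2%. The shared fallers were 14.9% and 13.5%. Across tested genes, which are not independent replicates, the log2 changes of the lines correlated at a Pearson r of 0.315 and a Spearman rho of 0.344. The difference between the changes of the lines, tested as an interaction in the same fit, was called for 944 genes in the direction of a higher change in HepG2-labelled cells (6.92%) and for 715 in the other (5.24%). It was called for 549 of the 1615 genes (34%).

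The integrated stress response list differed between the lines. In Huh-7-labelled cells 0 of its 29 tested members rose and 8 fell, beside 6.51% and 6.54% of all tested genes there. The median change of the list was -0.63. The line difference was called for 15 members upward in HepG2-labelled cells and for 0 downward, beside 6.92% and 5.24% of all tested genes. CHAC1 in Huh-7-labelled cells averaged 138 ± 6.48 CPM at 12 h and 9.82 ± 0.485 CPM at 24 h (mean ± SD, n = 3), a change of -3.81 on the log2 scale beside 1.69 in HepG2-labelled cells. The difference of 5.50 had an adjusted p of 1.63e-27. DDIT4 averaged 223 ± 8.05 CPM and 54.1 ± 2.69 CPM there, a change of -2.05 beside 2.60, and the difference of 4.65 had an adjusted p of 3.82e-31. TRIB3 and SESN2 also fell in Huh-7-labelled cells, by 2.51-fold and 2.94-fold. Untreated levels of CHAC1 were 51.5 CPM in the single HepG2-labelled library and 2.73 ± 0.357 CPM in Huh-7-labelled cells, and the 12 h levels thus stood below the untreated one in the first line and above it in the second. Among amino acid genes, the line difference was called for 9 of 22 members upward and 1 downward. SLC1A5 averaged 495 ± 14.1 CPM at 12 h and 222 ± 8.67 CPM at 24 h in Huh-7-labelled cells, a difference between lines of 2.38 (adjusted p 2.48e-26).

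**Figure D5:**
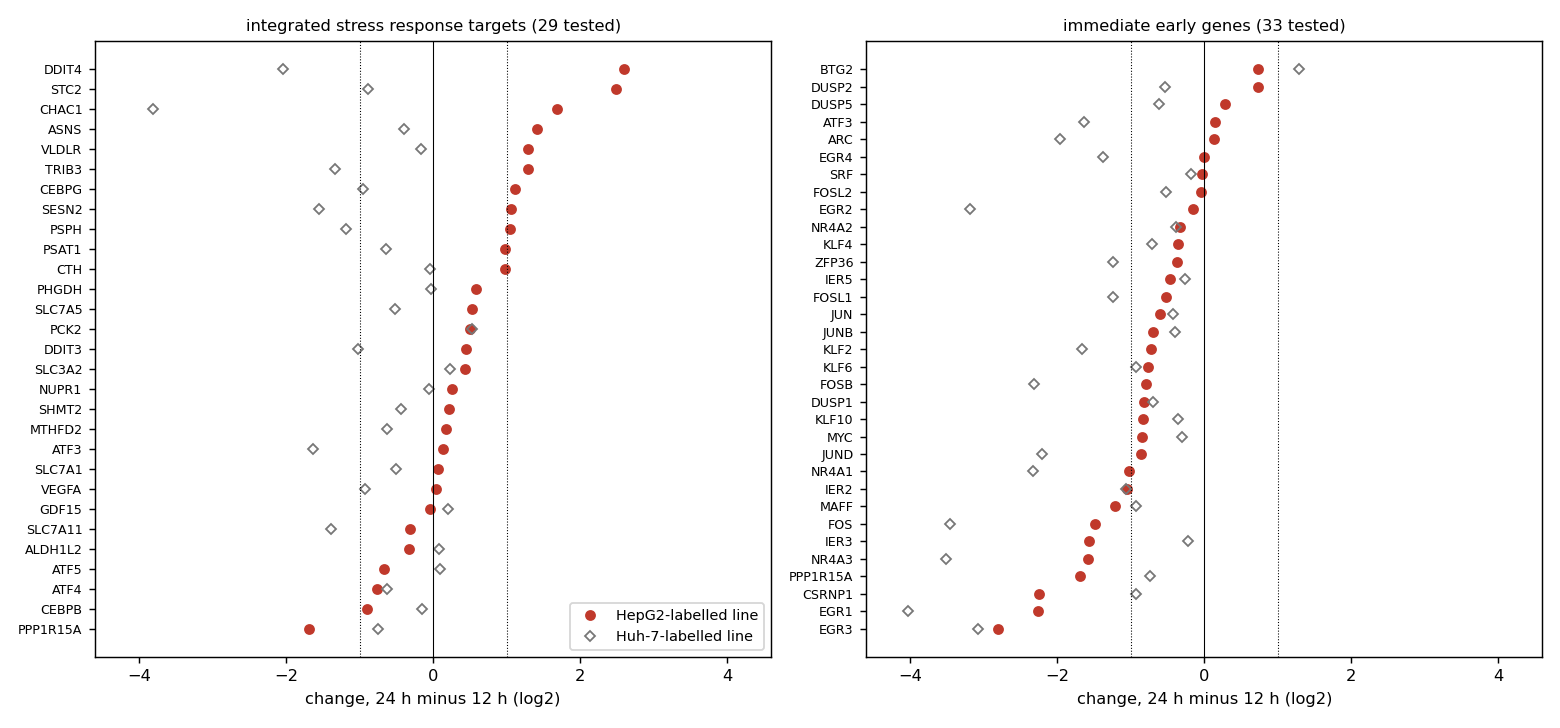
Change from 12 h to 24 h (log2) of each tested integrated stress response target (left) and immediate early gene (right) in the HepG2-labelled line (filled circles) and the Huh-7-labelled line (open diamonds), with dotted lines at 2-fold. On the left CHAC1 stands at 1.69 and -3.81 in the lines, and on the right most points of both lines lie below 0.

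Of the 33 immediate early genes 15 fell and 1 rose in Huh-7-labelled cells, beside 6.54% and 6.51% of all tested genes there, with a median change of -0.93. The line difference was called for 9 of the 33 upward in HepG2-labelled cells and for 2 downward, beside 6.92% and 5.24% of all tested genes. EGR1 averaged 577 ± 26.96 CPM at 12 h and 35.3 ± 3.24 CPM at 24 h in Huh-7-labelled cells, a change of -4.03 beside -2.26, and the difference of 1.77 was called (adjusted p 1.88e-09). Among those 2 was IER3, at -0.23 in Huh-7-labelled cells and -1.58 in HepG2-labelled cells (adjusted p 8.59e-17). NF-kB genes also differed, the change being more negative in HepG2-labelled cells for 5 members and more positive for 1. RELB averaged 31.1 ± 1.44 CPM at 12 h and 50.5 ± 5.41 CPM at 24 h in Huh-7-labelled cells, a change of 0.70 beside -1.10 (difference -1.80, adjusted p 2.32e-16). PDK4 changed in opposite directions in the lines, at 1.92 ± 0.610 CPM at 12 h and 23.6 ± 1.67 CPM at 24 h in Huh-7-labelled cells, a rise of 12.2-fold where it fell 2.27-fold in HepG2-labelled cells (difference -4.80, adjusted p 3.38e-21). LIPH, a phosphatidic acid lipase, rose 2.35-fold in Huh-7-labelled cells and fell 3.19-fold in HepG2-labelled cells (difference -2.91, adjusted p 4.47e-16). POLR2A rose in both lines and further in Huh-7-labelled cells, 5.26-fold (difference -1.29, adjusted p 3.24e-21). For ASB13, LATS2 and IER2 the line difference had adjusted p of 0.958, 0.668 and 0.935, with changes of 2.36 and 2.32, -1.30 and -1.33, and -1.05 and -1.06 in HepG2- and Huh-7-labelled cells.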

How the data were processed

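Total RNA was sequenced after oligo-dT selection on an Illumina instrument, per the labels' protocols. The deposited tables give RSEM expected counts and FPKM per gene, per the file headers, and HISAT, Bowtie2, RSEM and build hg19 are named by the submitters' processing notes, with versions not given in the sources used here. Expected counts as deposited were rounded, and a gene not listed in a library was taken as 0. FPKM as deposited by the authors served only to set levels of different genes side by side. Of 16697 identifiers (Entrez, 16665 named), 13633 passed edgeR's filterByExpr, and the 3064 removed held 0.0231% of counts. Library totals were 9543048 to 10457853. edgeR 4.0.16 in R 4.3.3 (limma 3.58.1) fitted TMM-scaled counts of all 16 libraries with 1 coefficient for each of 6 groups (10 residual degrees of freedom) by its quasi-likelihood test, with Benjamini-Hochberg adjustment over all tested genes. A call needed an adjusted p under 0.05 and at least 2-fold. The fit was tested on simulated data. CPM values in the text are on the TMM scale unless stated. Alternatives were DESeq2 1.42.0, other scalings, filters, thresholds, a replicate block and leaving out each library. Promoter windows came from RefSeq, build GRCh38.p14, with motifs searched on both strands, and were not tied to hg19 coordinates.

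The comparison, the 45 gene lists and the naming rule were chosen with earlier results of these data known. Genes were named as the 12 highest and 12 lowest non-overlapping called genes that averaged 10 CPM or more, up to 5 such called members of each list, the 8 called genes of highest mean, the 5 largest line differences in each direction, and a set of stress, cell cycle and target genes whatever their values. Other list members, among them MAFF, TRIB3, NR4A1, IER2, CEBPG, VLDLR, EGLN3 and the scarce PSG genes, were named after their values were seen, as were members given below the threshold. Some genes that the rule names are not reported here.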

Additional observations from a re-analysis of the deposited data

Results flagged for a closer look

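For the named genes below, the change from 12 h to 24 h differed between the HepG2-labelled and the Huh-7-labelled line, by the interaction in edgeR's quasi-likelihood test (adjusted p under 0.05 and a difference of at least 1 on the log2 scale, called for 12.2% of all tested genes). Each value is the HepG2-labelled change minus the Huh-7-labelled change on the log2 scale. Some of these genes were named for having a large interaction, so their number is no measure of how the lines differ. No cause was tested for any of them.

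Among stress response and amino acid genes the difference was 5.50 for CHAC1, 4.65 for DDIT4, 3.36 for STC2, 2.98 for GPT2, 2.62 for SESN2, 2.38 for SLC1A5, 2.24 for PSPH, 1.80 for ASNS, 1.78 for ATF3, 1.75 for XBP1 and 1.48 for DDIT3. XBP1, a transcription factor of the unfolded protein response, rose 2.04-fold in the HepG2-labelled line. For the heat shock gene HSPA1A, which has a near-identical copy, the difference was 2.67, and it averaged 1748 ± 4.17 CPM at 12 h and 377 ± 6.34 CPM at 24 h in Huh-7-labelled cells (mean ± SD, n = 3). Immediate early genes differed by 1.98 for FOS, 1.93 for NR4A3 and 1.77 for EGR1, all of which fell in both lines, and by -1.31 for CSRNP1 and -1.35 for IER3. THBS1 differed by -1.08 and PHLDA1 by -1.27.

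Genes of NOTCH signalling differed by 3.07 for NRARP and 1.67 for JAG2. Genes of NF-kB and interferon responses differed by -1.80 for RELB, -1.67 for OAS3, -1.30 for OAS1 and -1.81 for IRF9. Further genes with a more positive change in the HepG2-labelled line were LURAP1L at 4.90, BAHCC1 at 2.69, TSC22D3 at 2.07, SLFN5 at 1.93, BBX at 1.74, PHLDA3 at 1.71, AK4 at 1.65, AKR1C1 at 1.63, GRAMD4 at 1.58, SRSF7 at 1.55, CDK8 at 1.47, MKNK2 at 1.39 and DUSP7 at 1.26. LURAP1L was at 6.31, 5.34 and 5.12 CPM at 12 h and 12.2, 11.5 and 12.3 CPM at 24 h in the HepG2-labelled line and averaged 29.8 ± 1.81 and 2.14 ± 0.127 CPM in the other. Genes with a more negative change in the HepG2-labelled line were PDK4 at -4.80, LIPH at -2.91, DLX2 at -2.85, TENT5B at -2.01, RRAGC at -1.84, LOC102724594 at -1.69, MCM5 at -1.44, POLR2A at -1.29, ASL at -1.21, SELENBP1 at -1.20 and PLK1 at -1.13. HSPA6 and RUNX3 were at or under 3 counts per library in most HepG2-labelled libraries, as were COL15A1 and TENM3 in Huh-7-labelled ones, so no difference is given for them.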

How the results depend on the processing

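Among the 118 named genes, no alternative for which a direction or call was recomputed reversed a called gene. For the other called genes a reversal was not looked for. The counts of 891 higher, 724 lower and 1659 line differences became 366, 287 and 885 when genes under 10 CPM on average were left out, 4138, 4247 and 6897 with no fold threshold, and 159, 132 and 333 at a 4-fold threshold, by construction of these rules. Leaving out 1 library gave 862 to 930 higher, 678 to 737 lower and 1615 to 1671 line differences. DESeq2 gave 825, 681 and 1533. Plain library size gave 1153 higher and 560 lower. With a replicate block the counts were 784, 573 and 1613, as against 784, 573 and 1611 without it in the same libraries. The same-numbered HepG2-labelled libraries deviated together by only 0.0147, -0.00357 and 0.0247 (correlations), and not every library correlated best with its own number. No pairing by number was thus seen, but 3 libraries per time with a small spread cannot exclude it. Reversed values belonged to genes without a call: AURKA at 0.016 and EIF4E at 0.0344 under plain library size, and CDK1 at -0.0312 without 24 h replicate 1 (up to 0.0911 without replicate 2). Over the 118 named genes and settings, 1597 values kept direction and call, 41 lost the call, 3 gained one and 3 reversed. AVPI1 and BYSL, at the 2-fold edge, lost the call most often, and REL lost it under 4 settings. LOC102724594 moved from -2.64 to -2.10 without 24 h replicate 3 and to -3.28 without 24 h replicate 1. Depth limits the scarce genes: 3 counts make 0.295 to 0.338 CPM in the 6 libraries.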
